A study of Rattus norvegicus with 12 samples.

Results

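In the liver of hypothyroid-orchidectomized (TXOX) male rats, 60 probes met a rule for opposite mean values after estradiol (E2) and after growth hormone (GH). They came from 11478 probes of the deposited table with 3 or more values in each of the 3 treatments (22163 rows in all). These 60 probes, 0.523% of the 11478, were chosen by their measured values. The mean log2 ratios to TXOX after E2 (TXOXE2) and after GH (TXOXGH) had opposite signs, each was at least 0.3 in size, and they lay at least 0.8 apart. In 28 probes the value was higher after E2 and lower after GH, and in 32 it was lower after E2 and higher after GH. The E2 and GH values are therefore given as a description, and only the animals that received both hormones (TXOXE2GH), whose values were not used in the choice, carry a test. By comparison, 973 probes (8.48%) had E2 and GH values of the same sign that were each at least 0.3 in size.

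All animals were male Sprague-Dawley rats, given as 3 months old, that drank 0.05% methimazole, which blocks the synthesis of thyroid hormone, for 5 weeks and were orchidectomized, so that the controls as well as the treated rats were hypothyroid and without testes. TXOXE2 rats received E2 benzoate at 50 µg/kg subcutaneously on 5 days a week for 27 days. TXOXGH rats received GH at 0.3 mg/kg/day for 7 days, given as injections every morning and evening, and TXOXE2GH rats received both. TXOX controls received vehicle. Each treatment had 4 arrays of individual animals, on which liver RNA of a treated rat was labelled with Cy5 and liver RNA of a TXOX rat with Cy3. The log2 ratio is thus above 0 where the signal was higher in the treated liver. The dyes were never swapped, and the TXOX animal used on each array is not given in the sources used here. The 3 treatments share the TXOX controls, so their ratios are not independent of each other.

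GH acts on hepatocytes through its receptor, the kinase JAK2 and the transcription factor STAT5b, and its pulsatile pattern in males and more continuous pattern in females set much of the sex difference in liver gene expression. E2 acts on the liver through estrogen receptor alpha, and also indirectly by changing GH secretion and GH signalling, for which induction of the inhibitor SOCS2 is a known route. Thyroid hormone is needed for normal GH production in the rat pituitary, so the hypothyroid rat is used as a model with little GH of its own. The tables given for this study do not pair the probes with genes. The probes therefore carry their array names here, no function is given for them, and the liver label could not be checked against marker genes. In whole liver, a lower signal through fewer cells of a type and through less RNA per cell cannot be told apart.

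The arrays had 19130 to 22346 unflagged spots of 27094 with a probe, and the deposited table held 12305 to 17490 values per array. The median ratio of an array lay between -0.009 and 0.084. Of the 60 probes, 50 had a value on all 12 arrays. Their control signal (Cy3) was a median of 5.66 times the local background, against 3.77 over the 11478 probes, with a range from 2.1 to 35.1. Spots of 4 probes were dim, with under 50% of their pixels clearly above background in both channels on 2 or more E2 or GH arrays, and 2 probes had saturated pixels on 1 or 2 arrays.

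The gap between the E2 and GH values had a median of 1.20 on the log2 scale, reached 4.84, and was 1 or more in 42 probes and 2 or more in 7. Of the 7 widest gaps, 6 belonged to probes lower after E2 and higher after GH. The GH value was the larger of the pair in size in 33 of the 60. The range of the group values was -1.31 to -0.31 after E2 and 0.30 to 4.31 after GH among the 32 probes lower after E2. Among the 28 probes higher after E2 it was 0.31 to 1.14 after E2 and -1.25 to -0.31 after GH. At the edge of the rule, Rn30022314 (E2 -0.68, GH 0.30) and Rn30019210 (E2 0.49, GH -0.31, gap 0.80) lay just inside. Rn30015814 (E2 0.51, GH -0.2998) and Rn30011926 (E2 -0.31, GH 0.49, gap -0.798) lay just outside.

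**Figure D1:**
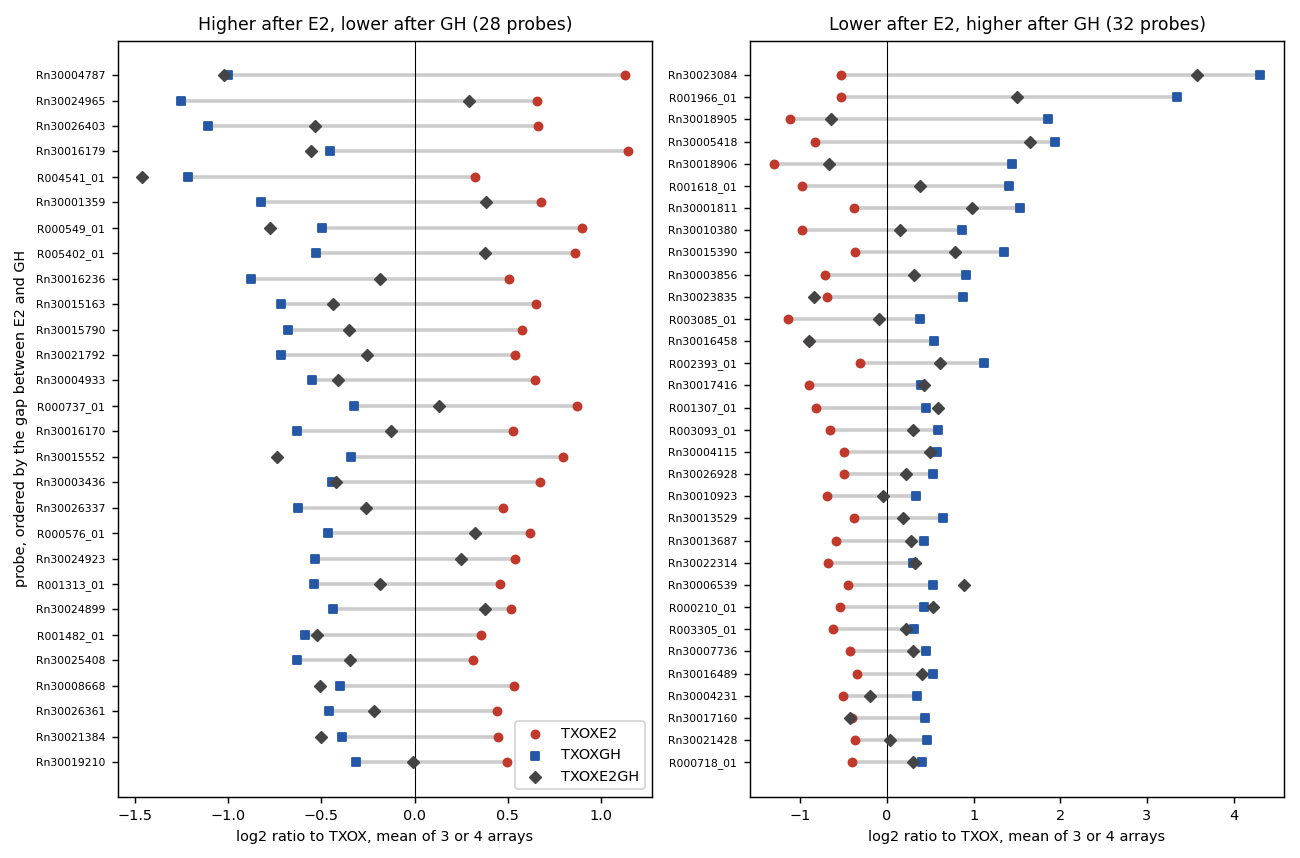
Mean log2 ratio to TXOX (x axis) of each of the 60 probes (y axis, ordered by the gap between E2 and GH) after E2 (red circles), GH (blue squares) and both hormones (dark diamonds), in the 28 probes higher after E2 (left) and the 32 probes lower after E2 (right). The grey line joins the E2 and GH values, and the diamond lies nearer to the GH value in 47 of the 60 probes.

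Rn30023084 had the widest gap of all 60 probes. Its log2 ratios were -1.29, 0.63, -1.24 and -0.24 after E2 (mean -0.53 ± 0.91, SD, n = 4) and 3.35, 4.43, 6.07 and 3.38 after GH (4.31 ± 1.28). With both hormones they were 3.13, 3.64, 4.56 and 2.99 (3.58 ± 0.71). All 4 arrays with both hormones lay above all E2 arrays and within the range of the GH arrays or just below it, and the E2 and GH means lay 4.84 apart on the log2 scale. The E2 side of this probe was uneven, since replicate 2 lay above 0. Saturated pixels occurred on 2 of the 12 arrays, GH replicate 3 and TXOXE2GH replicate 1, so that these values and the means that hold them are not exact.

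R001966_01 was intermediate with both hormones. Its ratios were -0.68, -0.27, -0.15 and -1.03 after E2, 3.12, 2.79, 4.27 and 3.20 after GH, and 2.55, 0.50, 1.18 and 1.79 with both. No array with both hormones overlapped with either single hormone. R001618_01 behaved alike, with -1.48, -0.54, -0.83 and -1.07 after E2, 1.06, 1.44, 1.55 and 1.61 after GH, and 0.24, 0.53, 0.01 and 0.73 with both. The 3 sets of arrays were again separate, and the mean with both hormones was 0.38 ± 0.32 (SD, n = 4). Rn30005418 stayed close to GH, with 2.00, 1.56, 2.25 and 0.79 with both hormones against 1.88, 2.66 and 1.27 on the 3 GH arrays with a value and -0.74, 0.22, -1.37 and -1.42 after E2.

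Rn30018905 and Rn30018906, which have consecutive names but were printed in different blocks of the slide (45 and 11), lay nearer to E2 when both hormones were given. Rn30018905 was -0.41, -0.29, -1.80 and -1.97 after E2 and 1.18, 1.96, 2.28 and 2.02 after GH. With both hormones it was -1.59, -2.07, 0.50 and 0.58, so that replicates 1 and 2 lay with or below the E2 arrays and replicates 3 and 4 lay between the E2 and GH arrays. Rn30018906 was -1.44, -0.85 and -1.62 on the 3 E2 arrays with a value, 1.06, 1.89, 1.45 and 1.36 after GH, and -1.32, -1.61, 0.00 and 0.24 with both. Rn30023835 had the same order of replicates, with -1.37, -2.24, 0.05 and 0.16 with both hormones, against -0.51, -0.22, -1.08 and -0.95 after E2 and 0.32, 1.12, 1.05 and 1.04 after GH. In these 3 probes the mean with both hormones (-0.64 ± 1.38, -0.67 ± 0.92 and -0.85 ± 1.16, SD, n = 4) stands for arrays of unlike level.

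Rn30017160 kept the E2 level with little spread. It was -0.50, -0.41, -0.40 and -0.29 after E2, 0.24, 0.67, 0.41 and 0.44 after GH and -0.64, -0.21, -0.41 and -0.45 with both hormones. Every array with both hormones lay below 0 and below every GH array, although the gap of this probe, 0.84, was among the narrower of the set. Rn30006539 lay at the other extreme, with a mean past the GH mean, although its arrays with both hormones overlapped with the GH arrays. It was -0.23, -0.56 and -0.57 on the 3 E2 arrays with a value, 0.76, 0.52, 0.54 and 0.28 after GH and 1.20, 1.16, 0.65 and 0.53 with both. It was dim on 2 of the E2 arrays.

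Further probes with wide gaps showed how far the replicates varied. Rn30010380 was -1.11, -0.51, -1.50 and -0.79 after E2, 1.28, 0.45, 0.75 and 0.97 after GH and 1.14, -0.07 and -0.62 on the 3 arrays with both hormones that had a value. Rn30003856, a dim spot, was -0.64, -0.71 and -0.80 on 3 E2 arrays, 1.31, 0.76, 1.20 and 0.41 after GH and 1.93, 0.06, -0.58 and -0.18 with both. In these 2 probes the arrays with both hormones reached from the E2 range, or just above it, into the GH range or past it, with replicate 1 the highest. Rn30001811 was -0.31, -0.53, -0.16 and -0.54 after E2, 1.09, 2.08 and 1.44 on 3 GH arrays and 1.30, 0.40, 1.86 and 0.36 with both, all above every E2 array. Rn30015390 was -0.96, 0.02, -0.05 and -0.48 after E2, 1.63, 1.48, 1.18 and 1.11 after GH and 1.01, 0.49, 1.60 and 0.04 with both. Replicates 1 and 3 were the higher pair with both hormones in Rn30001811 and Rn30015390. R003085_01 had the second-lowest E2 mean of the set, from -0.79, -1.33, -0.82 and -1.63, but only GH replicate 4 (1.25) stood well above 0, against 0.22, 0.06 and -0.01 on the other GH arrays.

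R000210_01 and Rn30004115 had smaller and more even values. R000210_01 was -0.30, -0.58, -0.61 and -0.66 after E2, 0.69, 0.06, 0.58 and 0.38 after GH and 0.86, 0.49, 0.45 and 0.34 with both hormones. Rn30004115 was -0.63, -0.63, -0.42 and -0.30 after E2, 0.61, 0.68, 0.23 and 0.82 after GH and 0.55, 0.70, 0.30 and 0.45 with both. In both probes every array with both hormones lay above 0 and above every E2 array, and the SD with both was 0.22 and 0.17 (n = 4).

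Among the probes higher after E2 and lower after GH, Rn30004787 had the widest gap. Its ratios were 1.47, 0.65, 1.14 and 1.25 after E2 (1.13 ± 0.35, SD, n = 4), -0.89, -1.10, -0.72 and -1.30 after GH (-1.0 ± 0.25) and -1.59, -1.52, -0.64 and -0.33 with both hormones (-1.02 ± 0.63). All arrays with both hormones lay below 0, and the E2 and GH means were 4.37-fold apart. Rn30016236, the probe with the brightest control signal of the set, took an intermediate level. It was 0.54, 0.60, 0.63 and 0.25 after E2, -0.61, -0.97, -0.98 and -0.94 after GH and -0.28, -0.32, 0.04 and -0.19 with both, with no overlap between the 3 sets. Rn30015163 gave 0.20, 1.01, 0.92 and 0.48 after E2, -0.73, -0.74, -0.77 and -0.63 after GH and -0.65, -0.65, -0.03 and -0.41 with both, which placed it nearer to GH.

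R000549_01 and Rn30015552 had means past the GH mean when both hormones were given, although these arrays overlapped with the GH arrays. R000549_01 was 0.29, 0.73, 1.22 and 1.33 after E2, -0.23, -0.48, -1.33 and 0.06 after GH and -1.14, -0.51, -1.10 and -0.35 with both, all below 0. Rn30015552 was farthest past GH of the 28, but was uneven within each group, with 0.31, 0.86, -1.49 and -1.05 after GH and -1.16, 0.24, -1.77 and -0.26 with both. R005402_01 and Rn30001359 instead kept a positive mean. R005402_01 was 0.70, 0.79, 0.69 and 1.25 after E2, -0.81, -0.29, -0.32 and -0.70 after GH and -0.17, 0.78, 0.83 and 0.08 with both hormones. Rn30001359 was 0.18, 0.50, 1.10 and 0.94 after E2, -0.54, -0.42, -1.83 and -0.50 after GH and -0.10, 0.79, -0.28 and 1.11 with both, above every GH array.

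Rn30016179 had the highest E2 mean of the set, from 1.17, 1.70, 1.05 and 0.66, with -1.03, -0.56, -0.32 and 0.10 after GH and -1.40, -0.22, 0.06 and -0.66 with both hormones. Rn30015790 was 0.87, 0.65, 0.93 and -0.15 after E2, -0.71, -1.04, -0.65 and -0.30 after GH and -0.84, -0.94, 0.14 and 0.23 with both. With both hormones Rn30021384 was -0.96, -1.13, 0.04 and 0.03, and Rn30004933 was -0.90, -0.82, -0.15 and 0.23. In Rn30015790, Rn30021384 and Rn30004933 replicates 1 and 2 lay low, among or below the GH values, and replicates 3 and 4 lay near 0. Replicates 1 and 2 were also the lower pair in Rn30018905, Rn30018906 and Rn30023835, where they had the sign of E2. There, replicates 3 and 4 lay near 0 except in Rn30018905 (0.50 and 0.58). Rn30021384 was named after its values were seen. Rn30021792 was 0.45, -0.19, 1.02 and 0.87 after E2, -0.25, -0.67, -1.64 and -0.30 after GH and -0.38, -0.45 and 0.07 on 3 arrays with both.

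**Figure D2:**
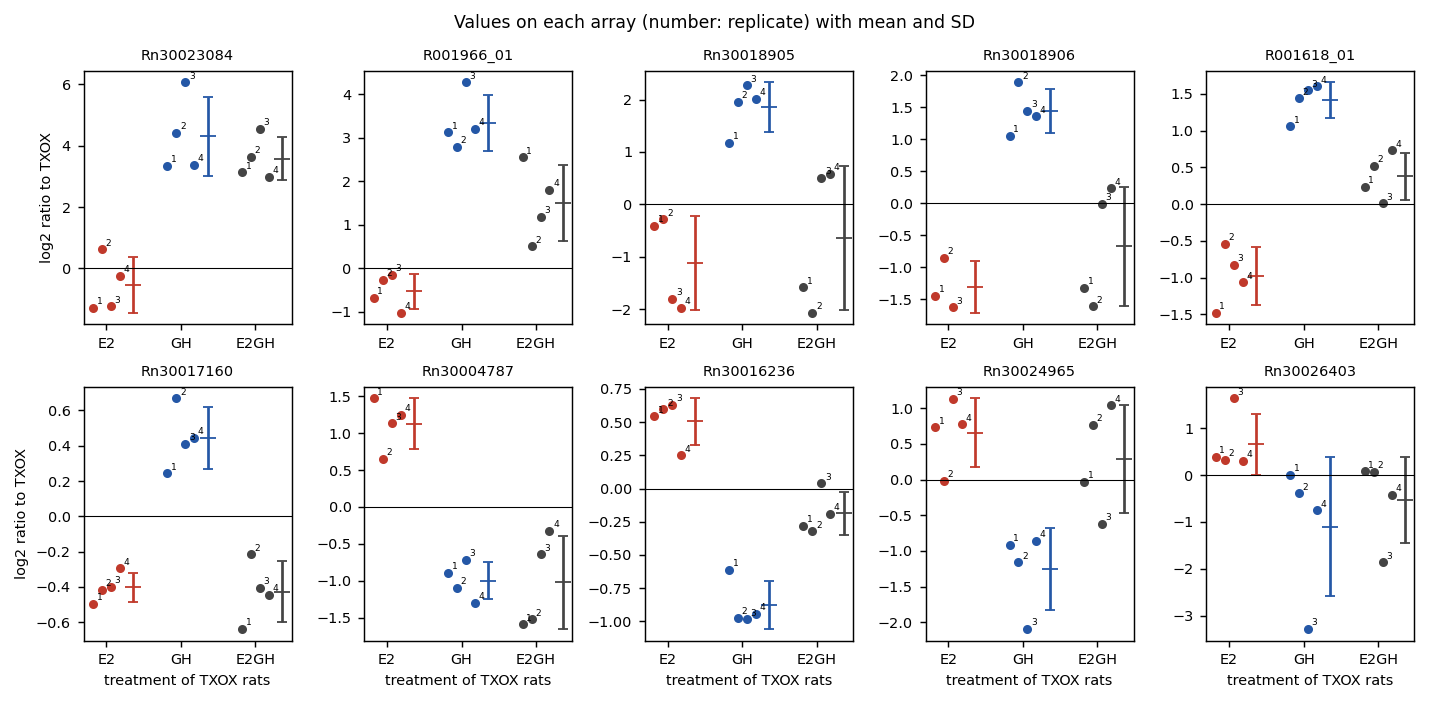
Log2 ratio to TXOX (y axis, scaled for each probe) on each array for 10 probes after E2 (red), GH (blue) and both hormones (dark), where the number beside a point is the replicate and the bar is the mean with the SD. R001966_01, R001618_01 and Rn30016236 show 3 separate sets of arrays, and Rn30018905 and Rn30018906 show replicates 1 and 2 with both hormones at -1.32 or lower and replicates 3 and 4 at 0.00 or higher.

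Some probes met the rule although their arrays disagreed widely. Rn30017416 ranged from -2.71 to 0.83 after E2 and from -1.37 to 2.56 after GH. R004541_01 ranged from -1.23 to 1.67 after E2 and from -3.35 to 0.48 after GH, and Rn30007736 from -2.64 to 1.22 after E2. Rn30017416 and Rn30007736 were named after their values were seen. Over the whole set, 35 of the 60 had 1 sign on every E2 array with a value and 1 sign on every GH array with a value, 23 of the 32 lower after E2 and 12 of the 28 higher after E2. The E2 and GH arrays did not overlap in 52 of the 60, against 10.9% of the 11478 probes, a count that the rule itself raises.

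To find which hormone the combination followed, the position of the TXOXE2GH value was placed on a scale on which the E2 value is 0 and the GH value is 1. The median position over the 60 probes was 0.693, with quartiles at 0.546 and 0.905. The value lay nearer to GH in 47 probes (78.3%), 25 of the 32 lower after E2 and 22 of the 28 higher after E2, and nearer to E2 in 13. It lay between the single hormones in 46 probes, past the GH value in 12 and past the E2 value in 2, Rn30023835 and Rn30017160. A further 128 probes also had E2 and GH values at least 0.8 apart without meeting the rest of the rule. Their median position was 0.735, and 76.6% lay nearer to GH, so that a place nearer to GH was about as frequent there as in the 60.

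The sum of the single-hormone values lies close to 0 for many of these probes, and a combined value near 0 could be close to the sum without being close to either hormone. Set against the E2 value, the GH value and their sum, TXOXE2GH was closest to the sum in 27 probes, to GH in 25 and to E2 in 8. Its mean had the sign of GH and was at least 0.3 in size in 32 probes, had the sign of E2 and that size in 9, and was under 0.3 in 19. The median TXOXE2GH value was 0.30 for the 32 probes lower after E2, whose median GH value was 0.53. It was -0.30 for the 28 higher after E2, whose median GH value was -0.54. Over the 11478 probes the median TXOXE2GH value was -0.007.

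The 4 arrays with both hormones did not place the probes alike. Among the probes lower after E2, the median ratio was 0.55, 0.17, 0.22 and 0.36 on replicates 1 to 4, and 23, 15, 17 and 22 of 31 or 32 measured probes lay nearer to the GH than to the E2 value. Among the probes higher after E2, the medians were -0.34, -0.26, -0.28 and -0.06, and 22, 18, 22 and 13 of 27 or 28 lay nearer to GH. The median thus had the sign of GH on every array in both directions. It was farthest from 0 on replicate 1 in both.

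**Figure D3:**
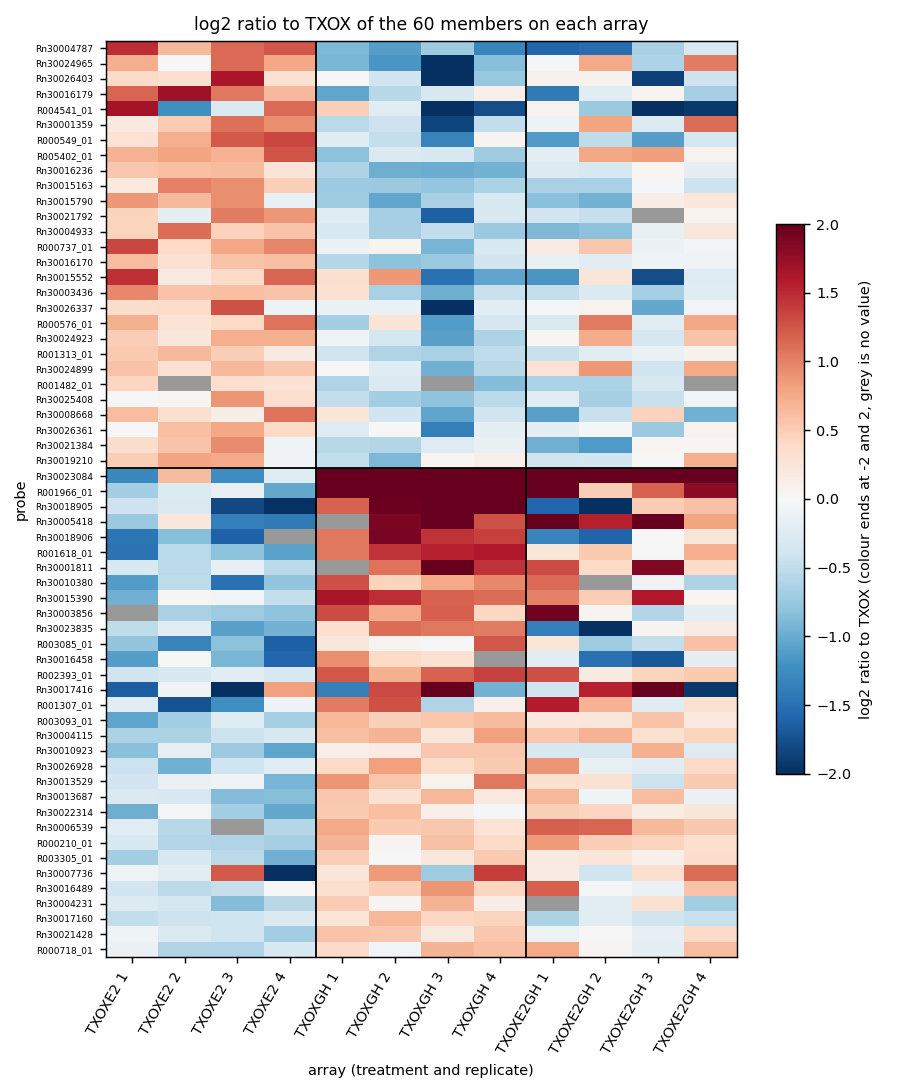
Log2 ratio to TXOX of the 60 probes (rows, with the 28 higher after E2 above the line and the 32 lower after E2 below it) on the 12 arrays (columns), with red above 0, blue below 0, colour ending at -2 and 2 and grey where no value was given. The 4 TXOXE2GH columns show both colours in both sets, with medians from 0.17 to 0.55 in the lower set and from -0.34 to -0.06 in the upper set.

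The comparison of TXOXE2GH with TXOX used arrays that played no part in the choice of probes, but these were not independent of the arrays that did. The control was the TXOX group throughout. That group held fewer rats than there were arrays, so some TXOX rats must have been used again on another array. Which arrays shared a TXOX rat is not given. Same-numbered GH and TXOXE2GH arrays deviated together from their group means in all 4 pairs (r = 0.306 to 0.453 over 14797 probes), while r was -0.148 to 0.108 between E2 and TXOXE2GH arrays. R004541_01 shows this, with 0.48, -0.22, -3.35 and -1.77 after GH and 0.07, -0.73, -3.25 and -1.93 with both hormones. The part of this likeness in the counts of probes called with both hormones, and in those nearer to GH, was not tested. In limma's moderated test on ratios made from the scanner intensities, with Benjamini-Hochberg adjustment over 18935 probes, 9 of the 32 probes lower after E2 and higher after GH rose with both hormones (28.1%, against 3.75% of all probes tested that rose) and 1 fell (3.12%, against 4.72% that fell). Of the 28 probes higher after E2 and lower after GH, 5 fell (17.9%) and 0 rose. At an unadjusted p under 0.05, 18 of the 32 and 14 of the 28 differed from TXOX in either direction, against 25.1% of all 18935 probes. The call rested on single animals for many probes: without TXOXE2GH replicate 1 it held for 8 of the 15, without replicate 3 it was made for 23, and SAM called 9 in place of 15. Over all probes, the 1604 calls became 881 without replicate 1, 1906 without replicate 3 and 509 by SAM, so the counts moved there too.

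The probes that rose were led by Rn30023084 (log2 ratio 3.70, SE 0.39, adjusted p = 3.6e-05 by limma), Rn30006539 (1.15, SE 0.14, adjusted p = 0.00012), Rn30005418 (1.71, SE 0.27, adjusted p = 0.0012) and R001966_01 (1.62, SE 0.26, adjusted p = 0.0015). All 4 of these probes had a GH value above 0 and kept their call without each array in turn and by SAM. R000210_01 rose by 0.66, and the call held in the same way. The calls of Rn30001811 (1.03), Rn30015390 (0.91), Rn30004115 (0.50) and R002393_01 (0.63), the last named after its values were seen, were lost by SAM and without at least 1 TXOXE2GH replicate, 1 for Rn30001811, 1 or 3 for Rn30015390, 2 for Rn30004115 and 1 for R002393_01. That of Rn30015390 was also lost with loess within each printed block.

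Among the probes that fell, Rn30004787 had a log2 ratio of -1.51 (SE 0.21, limma adjusted p = 0.00039), and this call was kept without each array and by SAM. R000549_01 (-0.99) lost its call without TXOXE2GH replicate 1, R001482_01 (-0.75) without replicate 1 or 2, Rn30004933 (-0.69) without replicate 1 or 2 and Rn30025408 (-0.61) without replicate 2. The last pair also lost it by SAM and in the fit to the deposited table, and R001482_01, a dim spot, where dim spots were left out. The probe that fell against the sign of its GH value was Rn30017160 (-0.45, SE 0.10, limma adjusted p = 0.011), and this call was lost without replicate 1, by SAM and with loess within each printed block. It was the sole probe of the 15 called whose combined value had the sign of E2.

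The signs on the single arrays gave a similar order. All TXOXE2GH arrays with a value lay above 0 in 13 of the 32 probes lower after E2 (40.6%), against 14.9% of the 11478, and all lay below 0 in 2 (6.25%), against 17.3%. Among the 28 higher after E2, all lay below 0 in 7 (25%) and all above 0 in 0. The signs were mixed in the remaining 38 probes.

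Other comparisons use the values that chose the probes and are a description of them. By limma, 34 of the 60 were called in E2 against TXOX (18.7% of all probes tested), 31 in GH against TXOX (6.99%) and 42 in E2 against GH (1.11%). In 17 probes both single hormones were called, and in 12 neither was, but the matching shares over all probes were not computed. Adding GH to E2 (TXOXE2GH against TXOXE2) was called in 22 of the 60 (0.708% of all), each in the direction of GH, and the arrays did not overlap in 28 (10.9% of the 11478). Adding E2 to GH (TXOXE2GH against TXOXGH) was called in 0 of the 60 by limma (0% of all 18695 tested) and in 0 by SAM, with 19 of the 60 at an unadjusted p under 0.05, against 5.94% of all probes. The main limma fit and SAM did not pair the GH and TXOXE2GH arrays by number. With the replicate number as a fixed block, 0 of the 60 and 0 of all 18658 tested were called. With loess within printed blocks 1 of the 60 and 3 of all 18695 were called. With the replicate number as a random block these counts were 1 and 2, and with the arrays scaled to a common spread 2 and 3. These arrays did not overlap in 12 probes (4.2% of the 11478).

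Spots of the set lay side by side on the slide more than once. Of the 60 probes, 10 were printed directly beside another in the same row of spots, in 4 rows. In block 31, row 22, columns 20 to 22 held Rn30024965, Rn30024899 and Rn30024923. Rn30024965 was 0.73, -0.01, 1.14 and 0.78 after E2, -0.91, -1.16, -2.09 and -0.85 after GH and -0.03, 0.76, -0.62 and 1.04 with both hormones. Rn30024899, with a control signal of 4.7 times background against 23.7 for Rn30024965, gave 0.29, 0.87, -0.40 and 0.76 with both, and Rn30024923 gave 0.02, 0.74, -0.34 and 0.57. With both hormones, replicate 3 was the lowest and replicate 1 the next in all 3 spots, and the gap was 1.91 in Rn30024965, 0.95 in Rn30024899 and 1.07 in Rn30024923.

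In block 38, row 24, columns 4 to 6 held Rn30026403, Rn30026337 and Rn30026361, and these rested on the replicate 3 arrays. Rn30026403 was -3.29 on GH replicate 3 against 0.01, -0.39 and -0.75 on the others, and -1.86 on TXOXE2GH replicate 3 against 0.08, 0.07 and -0.42. Rn30026337 was -2.01 and Rn30026361 -1.37 on that GH array, and -1.02 and -0.74 on that TXOXE2GH array. The size of the value thus fell off along the row on both arrays. Block 21 held Rn30016236 beside Rn30016170, and block 8 held R000718_01 beside Rn30016489. The probes other than Rn30024965, Rn30026403, Rn30016236 and Rn30024899 in these rows were named after their values were seen.

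The neighbours of all 60 probes were therefore compared. With the sign turned so that the gap of the probe itself is positive, the spot after it in the row had a median gap of 0.524 (37 spots with values, 31 of the same sign) and the spot before it 0.447 (22 spots, 17 of the same sign). The spots above and below it in the column had medians of 0.005 (21 spots, 11 of the same sign) and 0.101 (25 spots, 17 of the same sign). The 128 other probes with a gap of 0.8 or more gave 0.414 and 0.291 along the row and -0.032 and 0.005 along the column. The likeness of row neighbours was thus not particular to the 60. In 7 probes a row neighbour had a larger gap of the same sign, among them Rn30022314, whose neighbour Rn30022290 had a gap of -1.72 and a control signal of 31.8 times background against 4.68. Without these 7, the value with both hormones lay nearer to GH in 41 of 53 probes, and the 15 calls in TXOXE2GH against TXOX all remained. The part of neighbouring spots in the gaps was not tested.

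**Figure D4:**
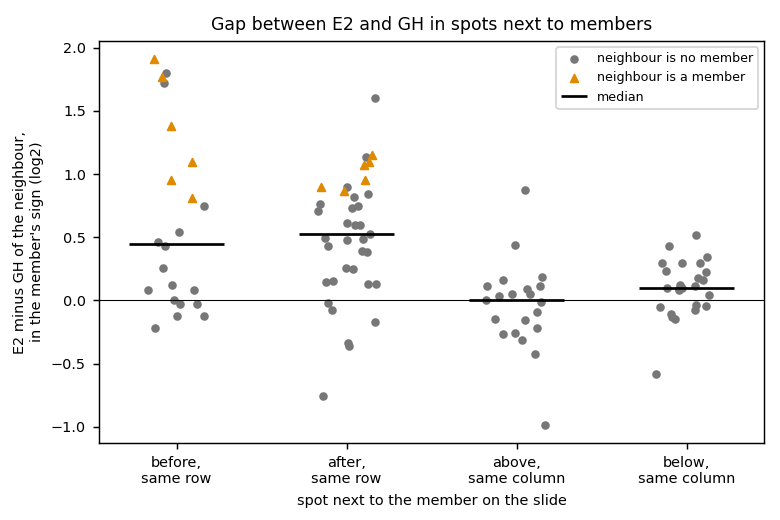
Difference between the E2 and GH values (y axis, log2, with the sign turned so that the gap of the probe itself is positive) in the spots printed next to the 60 probes, by their place (x axis), where triangles are neighbours that belong to the set and the line is the median. The medians were 0.447 and 0.524 along the row and 0.005 and 0.101 along the column.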

How the data were processed

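Liver RNA of 4 rats per treatment was hybridised in 2 colours against TXOX RNA on 70-mer rat oligonucleotide arrays. The authors scanned and quantified the slides with GenePix, and the deposited scanner files hold Cy5 and Cy3 intensity per spot, the percent of pixels above background or saturated, and quality flags, a score. The authors normalized the ratios by LOWESS, and the deposited table holds log2 ratios of treated to TXOX. The members and lists were chosen with earlier results of these data known. Values on single arrays, the rule, positions and neighbours were computed from the deposited log2 table (Python 3.11.15, pandas 2.3.3). Tests used limma 3.58.1 (R 4.3.3) on the intensity values: unflagged spots, normexp background correction with offset 50, global loess within arrays, a mean per treatment over 12 arrays and a variance trend, for probes with 3 or more values, called at an adjusted p under 0.05. The rows of the table match single spots, and spots of a repeated probe were averaged for the test. The fit was tested on simulated data, in which arrays and probes varied independently of each other. The likeness of same-numbered arrays and of row neighbours was thus not part of that check.

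Named probes were, in each direction, the 12 with the widest gap, up to 8 of those called in TXOXE2GH against TXOX with the smallest p, and those farthest towards or past either hormone. Over both directions together, the 2 just inside and the 2 just outside the rule were also named. Gene lists, cell type markers and sequences could not be applied because the probes were not paired with genes in the tables used here. Same-numbered GH and TXOXE2GH arrays deviated together (r = 0.306 to 0.453 over 14797 probes) and were read as pairs from the data. E2 and GH arrays (-0.175 to 0.21) and E2 and TXOXE2GH arrays (-0.148 to 0.108) were not. The main limma fit and SAM did not use this pairing. The replicate block was run as an alternative only, and it grouped the E2 arrays by number as well. Animals were individual, and the number of arrays limits the precision. Alternatives were other background corrections and normalizations, filters, variance models, SAM, a replicate block and leaving out each array.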

Additional observations from a re-analysis of the deposited data

Results flagged for a closer look

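Over 168 sets of 4 arrays (60 probes in 3 treatments, where all 4 had a value), 10 values (5.95%) lay far from the other 3 of their group, and chance gives about 1 in 20. GH replicate 3 and TXOXE2GH replicate 3 each held 3 of them. On GH replicate 3 these were Rn30001359 (-1.833), Rn30021428 (0.181) and Rn30026337 (-2.009), and on TXOXE2GH replicate 3 they were R003093_01 (0.576), Rn30010923 (0.713) and Rn30026337 (-1.018). GH replicate 1 held Rn30016236 (-0.611) and Rn30023835 (0.318). The remaining values were Rn30003436 on E2 replicate 1 (0.960) and Rn30026403 on E2 replicate 3 (1.638). The median of the other 3 arrays was -0.14 for Rn30026337 and -0.50 for Rn30001359 on GH, and 0.33 for Rn30026403 on E2. What set these values apart was not tested.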

How the results depend on the processing

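The rule gave 60 probes in the deposited table. It gave 111 in ratios made from the intensities with a global loess, of which 58 were shared with the 60, and 103 with loess within each printed block, of which 43 were shared. It gave 147 with thresholds of 0.2 and 0.6, and 32 with 0.4 and 1. Probes nearer to GH numbered 88 of the 111 and 73 of the 103, or 79.3% and 70.9%. Without each array in turn the rule gave 54 to 68 probes, with 39 to 53 nearer to GH and a median position of 0.623 to 0.80. The median position stayed within the spread between the TXOXE2GH arrays (SD 0.130) under all alternatives run.

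Over all probes, calls in TXOXE2GH against TXOX numbered 1604, but 719 with a log2 ratio of 0.58 or more also required and 509 by SAM. Calls in E2 against TXOX numbered 3600, but 963 with loess within printed blocks, 1202 with the log2 ratio required and 352 by SAM. Calls in GH against TXOX numbered 1466, but 598 with loess within printed blocks and 716 with the log2 ratio required. Calls in E2 against GH numbered 209, and 337 with the replicate block as a random effect (294 as a fixed effect), where numbers did not pair the arrays. Without each array in turn these 4 counts were 694 to 1906, 1637 to 3792, 530 to 1619 and 107 to 250. Of the 60 probes, 15 were called in TXOXE2GH against TXOX, 9 by SAM and 8 to 23 without each array. The replicate block as a random effect left these 15 as they were. As a fixed effect it gave 0 calls in TXOXE2GH against TXOXGH, and its calls against TXOX were not counted. Over the 35 named probes and 768 alternative values, 25 lost a call, 13 gained it and 0 called values changed sign. The number of arrays and the signal over background limit all of these values, and missing values removed 2 to 4 of the 60 under most single omissions.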
